A study of Mus musculus with 9 samples.

Results

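Genes of 3 axon guidance systems, the Eph receptors with their ephrin ligands, the Slit ligands with their Robo receptors, and the netrins with the receptors Dcc and Unc5, were followed in the olfactory bulb of CD1 mice from embryonic day 11 (E11) to birth (P0). They were chosen by the spelling of the gene symbol, which picked 47 of the 18194 genes named by a single symbol on the array. Of these, 39 belonged to the guidance families, namely 13 Eph receptors, 8 ephrins, 3 Slits, 4 Robo receptors, 6 netrins and 5 netrin receptors. The other 8 shared only letters with them (Slitrk1 to Slitrk6, Unc50 and Unc5cl) and were counted apart. RNA of the dissected bulbs of 1 animal per age, at E11, E12, E13, E14, E15, E16, E17, E18 and P0, was amplified in 2 rounds and hybridised to 1 Affymetrix mouse array each. All animals were CD1 with no treatment or genetic change named in the labels. No age had a replicate, so that the error of a trend is the scatter of the 9 arrays around it, and the difference between any single pair of ages was not tested.

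Guidance molecules steer growing axons and migrating neurons. Ephrins are bound to the cell membrane, the A class by a lipid anchor and the B class by a transmembrane segment, and they signal on contact through Eph receptor tyrosine kinases, mostly within the class. Slits are secreted proteins that repel cells carrying Robo receptors, and netrin is a secreted cue that attracts through Dcc and repels through Unc5 receptors. In the bulb, the axons of mitral cells leave through the lateral olfactory tract, which Slits help to place, and young interneurons migrate in from the ventricular zone of the forebrain. Since whole bulbs were measured, fewer cells of a type and less RNA per cell cannot be told apart in any of the levels below.

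Levels are deposited log2 values, in which 1 unit is a 2-fold difference, and a reading under log2 5 was treated as too low to follow. For a gene with several probe sets the one with the highest mean was used. Of the 39 guidance genes, 22 read log2 5 or more on at least 2 arrays and were tested, and 17 did not. Each was fitted by a straight line against age with limma, together with all 10865 genes that passed the same filter, and a change was called at an adjusted p under 0.05 over all of them. Of the 22 tested, 5 rose, 9 fell and 8 did not pass. Without the E11 array 2 rose and 8 fell. Over all genes tested, 25.2% rose and 21.9% fell, so that the rising share of the guidance genes (22.7%) lay near the background and the falling share (40.9%) above it; this difference was not tested. The median slope of the 22 was 0.038 log2 units per day, and that of all genes tested was 0.0020. Among the 10 ligands tested 1 rose and 6 fell, and among the 12 receptors 4 rose and 3 fell. Counting the other 8 symbols as well, 26 were tested, of which 8 rose and 9 fell.

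**Figure D1:**
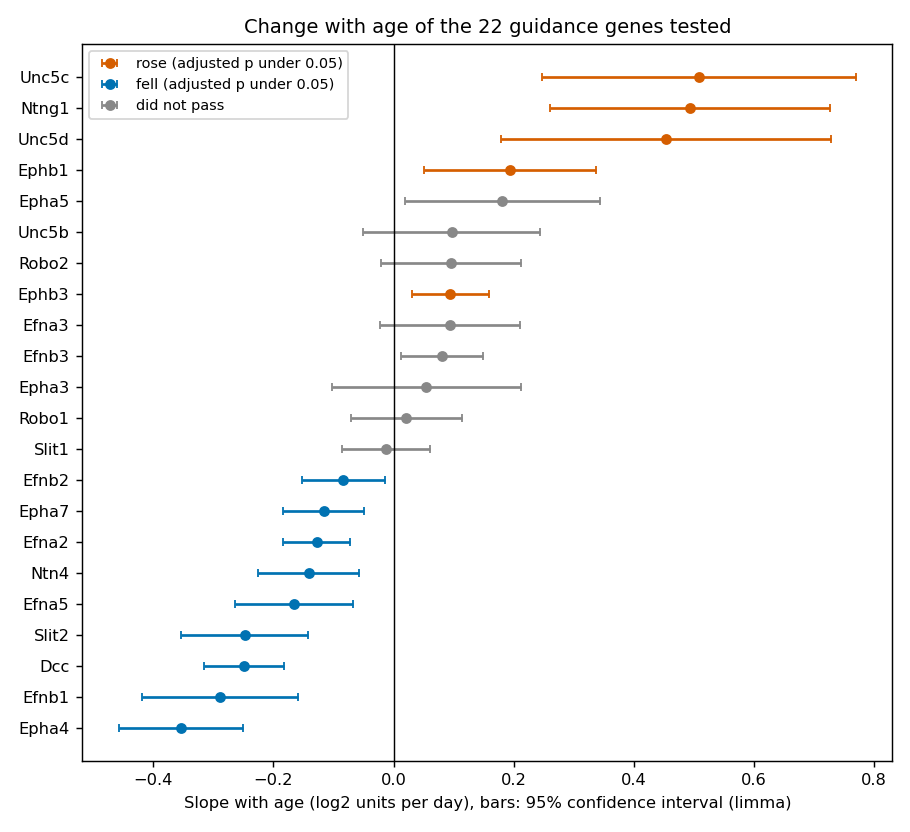
Slope with age in log2 units per day (horizontal axis) of the 22 guidance genes tested (vertical axis, ordered by slope), with the 95% confidence interval from limma over 9 arrays. The 5 that rose run from Ephb3 at 0.094 to Unc5c at 0.51, and the 9 that fell from Efnb2 at -0.084 to Epha4 at -0.35. With values under log2 5 set to 5 the slope of Unc5c was 0.38.

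The calls of 4 members (Epha4, Efnb1, Ntng1 and Dcc) held under each of 23 alternative settings, which exclude the fits of single other probe sets. With those counted as well, the calls of Epha4, Efnb1 and Dcc held in each and that of Ntng1 did not. The 250 bases before the start of transcription of Epha4, Efnb1 and Ntng1 are shown, because they stand for a receptor that fell, a ligand that fell and a gene that rose. They are from RefSeq (GRCm38.p6), 5′ to 3′ on the strand of the gene, and capitals mark the motif CCAAT on either strand (ATTGG as read here).
Epha4 (chr1:77515089-77515338, minus strand): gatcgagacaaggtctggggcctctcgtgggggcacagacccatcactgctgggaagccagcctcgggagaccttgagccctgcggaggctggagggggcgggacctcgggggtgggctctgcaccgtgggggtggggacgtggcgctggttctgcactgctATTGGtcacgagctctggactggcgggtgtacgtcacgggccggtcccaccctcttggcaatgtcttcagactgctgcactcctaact
Efnb1 (chrX:99135811-99136060, plus strand): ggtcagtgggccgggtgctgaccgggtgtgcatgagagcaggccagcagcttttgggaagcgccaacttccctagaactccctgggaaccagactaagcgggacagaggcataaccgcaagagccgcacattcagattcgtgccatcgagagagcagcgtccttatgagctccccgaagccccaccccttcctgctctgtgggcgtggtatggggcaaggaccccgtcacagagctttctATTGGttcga
Ntng1 (chr3:110143473-110143722, minus strand): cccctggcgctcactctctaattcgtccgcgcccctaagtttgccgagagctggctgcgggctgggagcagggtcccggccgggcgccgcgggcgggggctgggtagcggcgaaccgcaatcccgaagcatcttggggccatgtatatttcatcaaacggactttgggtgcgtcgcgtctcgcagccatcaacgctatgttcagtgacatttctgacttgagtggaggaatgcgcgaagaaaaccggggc
The Epha4 and Efnb1 windows each held CCAAT on the opposite strand 1 time, beginning 88 and 10 bases before the start, and the Ntng1 window held none. This motif was picked after the sequences were read, and 33.9% of 32851 promoter windows of that length held it. The E-box, CANNTG, was in none of the 3, against 66.2% of all windows. The dinucleotide CG occurred 14 times in the Epha4 window, 13 times in that of Efnb1 and 25 times in that of Ntng1, and the median over all windows was 6. These matches describe letters and name no binding site.

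Of the 4 class A Eph receptors tested, Epha4 and Epha7 fell, Epha3 had a peak and Epha5 passed neither test. Epha4, a receptor that binds ephrins of both classes, read 10.13 at E11, 9.55 at E12, 9.31 at E13, 9.57 at E14, 7.95 at E15, 8.33 at E16, 8.45 at E17, 7.32 at E18 and 7.24 at P0. The 4 earliest arrays were the 4 highest and the arrays of E18 and P0 the lowest. Epha4 fell by 0.35 ± 0.047 log2 units per day (± the standard error over n = 9 arrays, limma, adjusted p = 2.32e-04), and P0 was 7.41-fold below E11. The largest drop between consecutive arrays, -1.62, was from E14 to E15. Both other Epha4 probe sets that passed the filter had like slopes, -0.34 ± 0.064 and -0.38 ± 0.053. Epha7, a receptor of ephrin-A ligands, read between 7.20 at P0 and 8.55 at E11, and 6 of the 8 steps from a day to the next were downward. It fell by 0.12 ± 0.031 per day (limma, adjusted p = 0.0104), and lost the call without the E11 array (adjusted p = 0.0512) or the P0 array (adjusted p = 0.0655). Neither of its other probe sets that reached the filter was called (-0.11 ± 0.040, limma, adjusted p = 0.0517, and -0.047 ± 0.039, adjusted p = 0.353).

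Epha3, another receptor of ephrin-A ligands, was lowest at the youngest ages and highest in the middle of the course. It read 9.43 at E11, 10.29 at E12, 11.30 at E13, 11.33 at E14, 11.23 at E15, 11.18 at E16, 10.70 at E17, 10.48 at E18 and 10.45 at P0. Its line against age was nearly flat (0.055 ± 0.071, limma, adjusted p = 0.554), but the term for age squared passed (limma, adjusted p = 0.0123), with a fitted maximum at day 15.3 that lay 1.42 log2 units above the fitted ends. A peak of this kind, at a fitted day between 12 and 18, was called for 4.96% of all genes tested. From E13 to P0 alone, Epha3 fell by 0.17 per day (limma, adjusted p = 0.00345), so that the climb from E11 to E13 and the later decline cancelled in the straight line. The peak call was lost without the E11 array (adjusted p = 0.0956) and when embryo sex entered the fit (adjusted p = 0.0725). The E11, E12, E15 and P0 animals read high for Xist and the others low, so that sex was partly tied to the ends of the course. With sex in the fit the fitted maximum stayed at day 15.3 and lay 1.41 log2 units above the fitted ends. The part of sex in this peak was not tested on its own. Epha5, an ephrin-A receptor of forebrain axons, read 8.79 at E11, 9.94 at E12, 11.52 at E14 and 11.05 at P0. Its slope of 0.18 ± 0.073 missed the threshold (limma, adjusted p = 0.0644, 95% confidence interval 0.019 to 0.34). Another Epha5 probe set passed at 0.21 ± 0.074 (limma, adjusted p = 0.0400) and the remaining ones did not, so that the probe sets of this gene disagreed.

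Both class B receptors tested rose, against 25.2% of all genes tested. They rose by less than the steepest class A receptor fell. Ephb1, a receptor of ephrin-B ligands, read 6.54 at E11 and 5.86 at E12 and between 7.62 and 8.04 on all 7 later arrays. Its slope was 0.19 ± 0.064 (limma, adjusted p = 0.0302), and the largest step was that of 1.86 from E12 to E13. From E13 on the slope was 0.015 (adjusted p = 0.791). The call of Ephb1 ended under 7 of the 23 alternatives, among them the fits without the E11 array (adjusted p = 0.110), without the E12 array (slope 0.12, adjusted p = 0.0679) or without the E17 array (0.0558), and with embryo sex (0.0535). Ephb3, a receptor of the same ligands, read 6.31 at E11, 6.76 at E15 and 7.32 at P0, a 2.02-fold difference between the ends. It rose by 0.094 ± 0.029 per day (limma, adjusted p = 0.0215), a call that ended under 6 of the 23 alternatives, among them median centring of the arrays (adjusted p = 0.0584) and E13 to P0 alone (0.207). The remaining 7 receptors, Epha1, Epha2, Epha6, Epha8, Epha10, Ephb4 and Ephb6, read under log2 5 on every array, with Ephb6 the nearest to it at 4.78 at E12. Ephb2 was not analysed here.

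Ephrins mostly fell or did not pass. Of the 6 tested, 0 rose and 4 fell in limma, against 25.2% and 21.9% of all genes tested. This difference was not tested. At an unadjusted p under 0.05 a further member, Efnb3, had a rising slope. Efnb1, a transmembrane ligand of EphB receptors encoded on the X chromosome, read 10.36 at E11, 11.09 at E12, 10.66 at E13, 9.28 at E14, 9.28 at E15, 9.90 at E16, 9.44 at E17, 8.28 at E18 and 8.58 at P0. The 3 youngest arrays were the 3 highest and those of E18 and P0 the lowest. It fell by 0.29 ± 0.058 per day (limma, adjusted p = 0.00266), and P0 was 3.43-fold below E11. With the sex of the embryo as a further term its slope was -0.29 (adjusted p = 0.00531), and both other probe sets fell as well (-0.23 ± 0.035 and -0.24 ± 0.042). Efnb2, the ephrin-B ligand also known from arteries, read between 12.21 at E18 and 13.33 at E12. Its fall of 0.084 ± 0.031 per day was near the threshold (limma, adjusted p = 0.0472), and was lost under 14 of the 23 alternatives, including the fit without the E12 array (adjusted p = 0.140). Neither of its other probe sets was called (adjusted p = 0.0562 and 0.312). Efnb3, an ephrin-B ligand of the midline, was lowest at E11 with 7.74 and highest at E15 with 8.66, with a slope of 0.081 ± 0.031 that missed the threshold (limma, adjusted p = 0.0521). It passed under 5 alternatives, such as quantile normalization (adjusted p = 0.0445).

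Among the membrane-anchored ephrin-A ligands, Efna5 and Efna2 fell. Efna5 read 10.17 at E11, 10.76 at E12, 10.30 at E13, 9.16 at E14, 9.76 at E15, 9.55 at E16, 9.12 at E17, 9.48 at E18 and 9.14 at P0. The arrays of E11 to E13 lay above all 6 later ones, and the fall was 0.17 ± 0.044 per day (limma, adjusted p = 0.0112), with the largest step, -1.14, from E13 to E14. Efna2 read 8.78 at E12, its highest, 8.37 at E15 and 7.62 at E18, its lowest, and fell by 0.13 ± 0.025 per day (limma, adjusted p = 0.00237). Its other probe set, with a mean level of 5.19, did not pass (-0.064 ± 0.042, limma, adjusted p = 0.237). From E13 to P0 alone neither passed (adjusted p = 0.136 for Efna5 and 0.0524 for Efna2). Efna3 read 6.65 at E11, 7.68 at E12 and between 7.78 and 8.46 from E13 on; its slope of 0.094 ± 0.053 did not pass (limma, adjusted p = 0.165), whereas its other probe set rose by 0.16 ± 0.052 (limma, adjusted p = 0.0327). Efna1 and Efna4, which lie on either side of Efna3 in the RefSeq gene table with 0 other protein-coding genes between them, read at most 4.59 and 2.35.

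**Figure D2:**
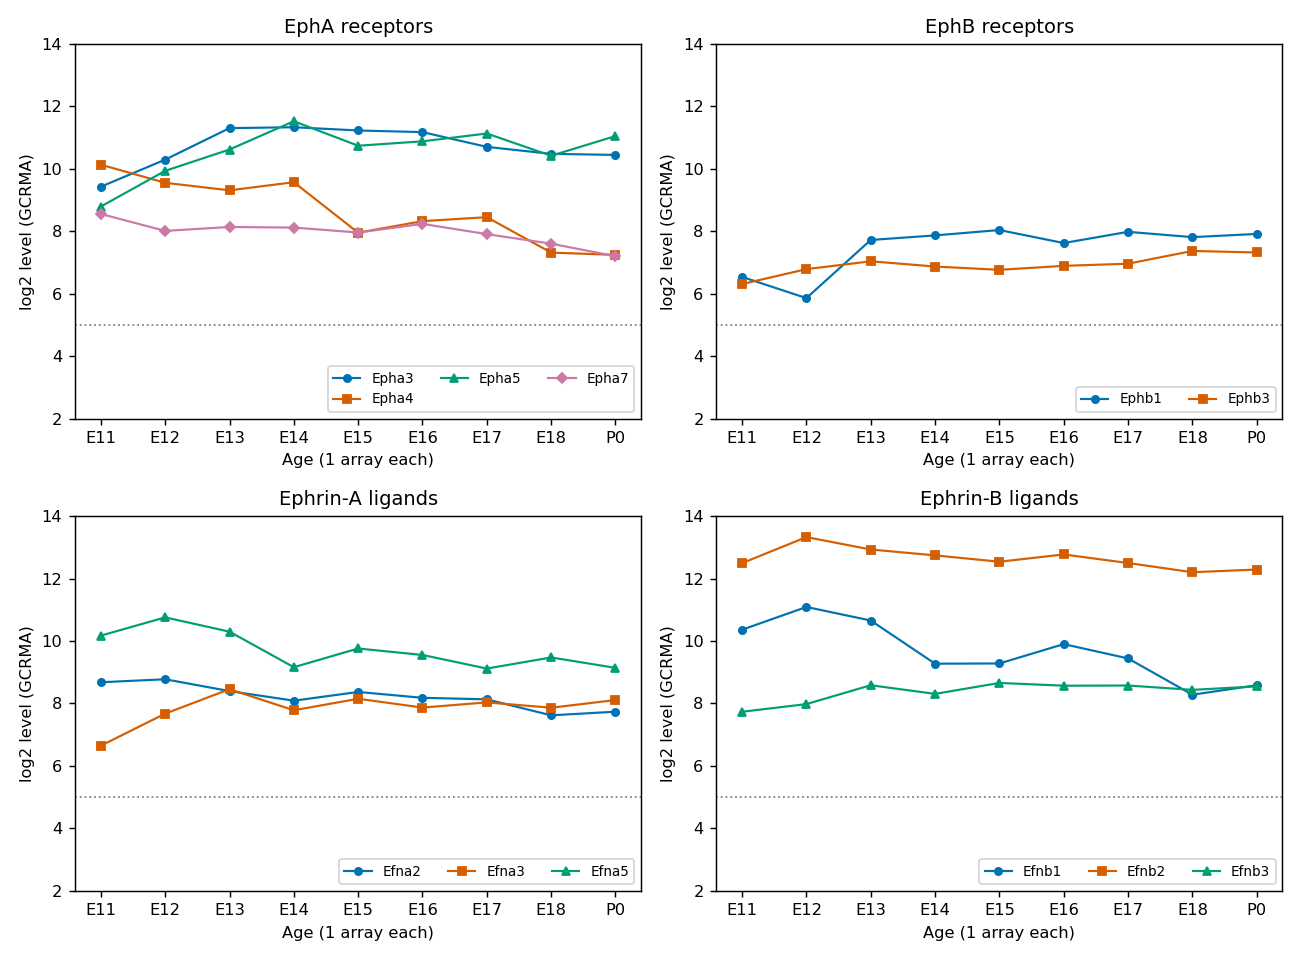
Deposited log2 level (vertical axis) against age (horizontal axis, 1 array per age) of the Eph receptors and ephrins tested, with the filter level of 5 as a dotted line. Epha4 runs from 10.13 to 7.24 and Efnb1 from 10.36 to 8.58, while Epha3 is highest at E14; heights of different genes come from different probes and are not comparable.

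In the Slit and Robo family a ligand changed and the receptors did not pass. Slit2 read 9.65 at E11, 9.13 at E12, 8.42 at E13, 7.96 at E14, 7.64 at E15, 7.78 at E16, 8.09 at E17, 7.25 at E18 and 7.55 at P0. Each of the 3 youngest arrays lay above all later ones, and P0 was 4.3-fold below E11. Slit2 fell by 0.25 ± 0.047 per day (limma, adjusted p = 0.00194); from E13 to P0 alone the slope was -0.13 (adjusted p = 0.0886), so that the call did not hold with both the E11 and E12 arrays left out. Slit1, the Slit of which expression is known mainly from the nervous system, stayed between 5.79 and 6.44 with a slope of -0.012 ± 0.033 (limma, adjusted p = 0.783, 95% confidence interval -0.085 to 0.061). Slit3 was under log2 5 on every array, at most 3.74.

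Robo1 and Robo2, the main neuronal Slit receptors and direct neighbours in the RefSeq gene table, were lowest at E11. Robo1 read 9.17 at E11 and between 9.65 and 10.31 on the other arrays, and Robo2 read 8.57 at E11 and between 9.68 and 10.38 afterwards. Their slopes were 0.022 ± 0.042 for Robo1 (limma, adjusted p = 0.699, 95% confidence interval -0.071 to 0.11) and 0.096 ± 0.052 for Robo2 (limma, adjusted p = 0.157, -0.020 to 0.21). A weaker Robo1 probe set, with a mean level of 5.76, rose by 0.21 ± 0.077 (limma, adjusted p = 0.0446) and so disagreed with the main one. Robo3, a receptor of commissural neurons, and Robo4, a receptor of vessels, read at most 3.96 and 4.40.

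The netrins and their receptors held the steepest slopes in the set. Ntng1, which encodes netrin-G1, a lipid-anchored relative of the netrins that binds the synaptic protein Lrrc4c in place of Dcc, read 5.09 at E11, 7.54 at E12, 9.22 at E13, 8.63 at E14, 9.67 at E15, 9.82 at E16, 9.76 at E17, 9.97 at E18 and 10.10 at P0. The E11 and E12 arrays were the lowest and P0 the highest, 32.2-fold above E11, although the E11 level lay close to the filter level. Ntng1 rose by 0.49 ± 0.11 per day (limma, adjusted p = 0.00354), with the largest step, 2.46, from E11 to E12. The rise flattened, with a negative term for age squared (limma, adjusted p = 0.0323) and a fitted maximum at day 17.1, but it was still called from E13 to P0 alone (0.19 per day, adjusted p = 0.0224). The term for age squared missed the threshold without the E15 array (limma, adjusted p = 0.084), the E16 array (0.0605) or the E18 array (0.0627). It also did so with no filter on low values (0.0835). A second probe set rose by 0.25 ± 0.062 (limma, adjusted p = 0.00810), and another, with log2 5 reached on 6 arrays, did not pass (0.12 ± 0.063, limma, adjusted p = 0.140). Ntn4, a laminin-related netrin of basement membranes, read 8.08 at E11, 7.88 at E14, 6.82 at E16 and 7.43 at P0. It fell by 0.14 ± 0.038 per day (limma, adjusted p = 0.0118), and the 4 arrays from E11 to E14 lay above the 5 later ones. The call of Ntn4 was lost from E13 to P0 alone (limma, adjusted p = 0.156) and by exact rank correlation (adjusted p = 0.0535). Ntn1, the classical netrin, reached log2 5 on a single array (5.26 at E17; lowest 4.41) and was the member nearest below the filter, while Ntn3, Ntn5 and Ntng2 read at most 2.66.

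Dcc, the receptor through which netrin attracts, fell while 2 of the Unc5 receptors rose. Dcc read 12.31 at E11, 12.87 at E12, 12.25 at E13, 12.13 at E14, 11.73 at E15, 11.67 at E16, 11.38 at E17, 10.73 at E18 and 10.73 at P0. From E12 to E18 every array lay below the array before it. Its slope was -0.25 ± 0.030 (limma, adjusted p = 1.40e-04), P0 was 2.99-fold below E11, and a second Dcc probe set had a slope of -0.30 ± 0.027. Unc5c, a repulsive netrin receptor, read 4.62 at E11, 3.03 at E12, 6.01 at E13, 6.35 at E14, 7.85 at E15, 7.96 at E16, 7.55 at E17, 7.98 at E18 and 7.36 at P0. The E11 and E12 arrays were under log2 5, and all 5 arrays from E15 on lay above E13 and E14. Unc5c rose by 0.51 ± 0.12 per day (limma, adjusted p = 0.00548) and its P0 level was at least 5.14-fold that of E11. The slope rests in part on the 2 readings under log2 5. It was 0.38 with values under 5 set to 5 (limma, adjusted p = 0.00199) and 0.38 without the E12 array (adjusted p = 0.00778). A second Unc5c probe set, with log2 5 reached on 4 arrays, rose by 0.34 ± 0.078 (limma, adjusted p = 0.00529). From E13 to P0 alone Unc5c missed the threshold (adjusted p = 0.0845).

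Unc5d, a receptor known from migrating cortical neurons, read 4.52 at E11, 5.96 at E12, 8.27 at E13, 9.10 at E14, 9.01 at E15, 8.82 at E16, 8.98 at E17, 8.59 at E18 and 9.07 at P0. Its P0 level was at least 16.8-fold that of E11, and the climb was complete by E14. The slope was 0.45 ± 0.12 (limma, adjusted p = 0.0125), the negative term for age squared passed (limma, adjusted p = 0.0139), and from E13 to P0 the slope was 0.048 (adjusted p = 0.513). The slope also lost its call without the E11 array (adjusted p = 0.0808). Unc5b, a netrin receptor also of vessels, read 5.60 at E11, 7.56 at E15 and 6.48 at P0 and did not pass (0.097 ± 0.067, limma, adjusted p = 0.260). Unc5a read at most 4.36. Unc5c and Unc5d read log2 5 or more on 7 and 8 arrays, and every other guidance gene tested did so on all 9.

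**Figure D3:**
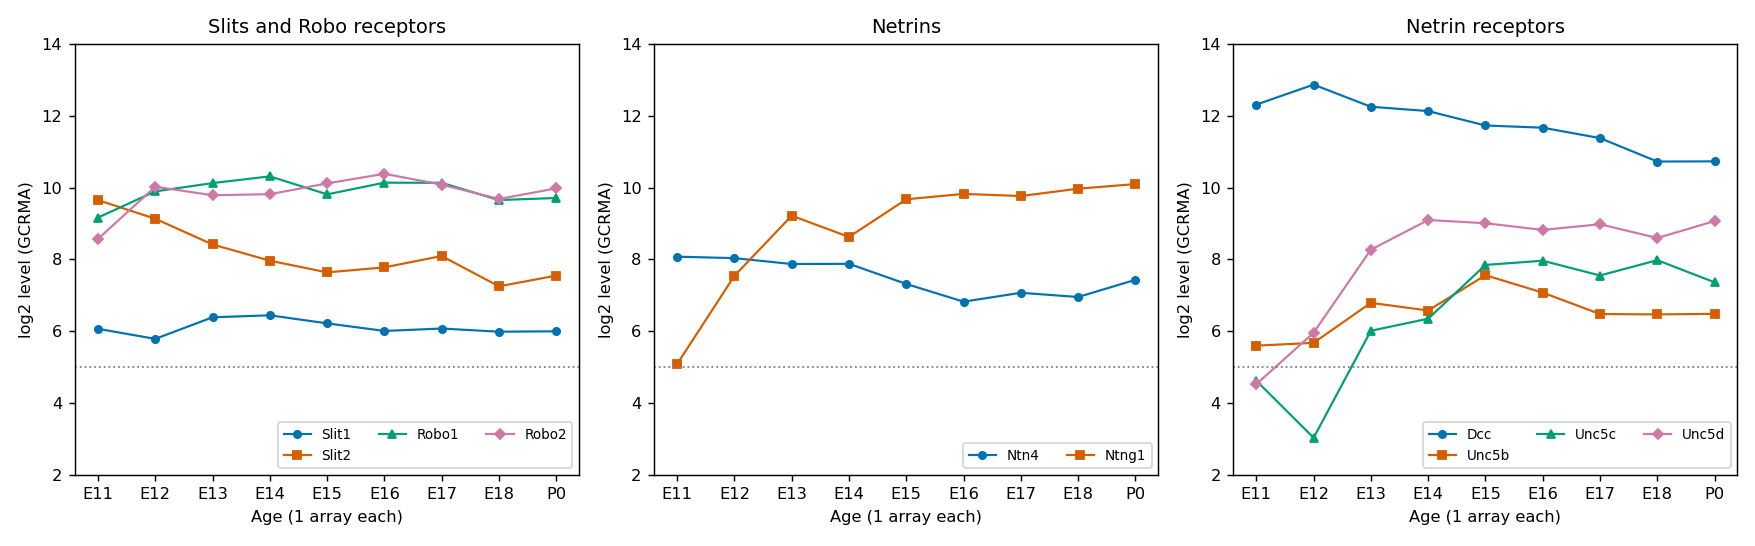
Deposited log2 level (vertical axis) against age (horizontal axis, 1 array per age) of the Slits, Robo receptors, netrins and netrin receptors tested, with the filter level of 5 as a dotted line. Slit2 and Dcc decline, Ntng1, Unc5c and Unc5d climb mostly between E11 and E15, and Robo1 and Robo2 change little after E12; heights of different genes are not comparable.

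Of the 3 peaks called among the 22 members, those of Ntng1 and Unc5d were thus rises that levelled off, and Epha3 had the clearest decline after its maximum. No member had a dip, which 1.26% of all genes had. When embryo sex entered the fit, none of the 3 kept its call (limma, adjusted p = 0.116 for Ntng1 and 0.0793 for Unc5d), nor did any without the E11 array. Peaks over all genes dropped as well, from 539 of 10865 to 70 with embryo sex and to 191 of 10801 without the E11 array. The E11 to E13 interval weighed on the rising calls as well. From E13 to P0 alone 1 member rose and 6 fell, against 14.2% and 11.1% of all genes.

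Of the 8 symbols that share only letters with the guidance genes, 4 were tested and 3 rose, against 25.2% of all genes tested. Slitrk1, Slitrk2 and Slitrk4, synaptic adhesion proteins that bind no Slit, rose by 0.24 ± 0.062, 0.17 ± 0.051 and 0.31 ± 0.041 per day (limma, highest adjusted p = 0.0180). Slitrk4 was lowest at E12 with 5.93 and highest at P0 with 8.62. Unc50, a protein of the Golgi, stayed between 11.36 and 11.87, and the other 4 were too low to follow.

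Genes that act with these ligands and receptors were taken from lists that contain no member. Of 67 listed genes 62 were tested, of which 21 rose and 6 fell (33.9% and 9.68%, against 25.2% and 21.9% of all genes tested; the difference was not tested). Among 12 co-receptors and alternative ligands 4 rose and 1 fell. Dscam, a netrin receptor and adhesion molecule, rose by 0.33 ± 0.066, from 5.04 at E11 to 8.01 at P0, Flrt2, a ligand of Unc5 receptors, by 0.17 ± 0.053, and Dscaml1, the relative of Dscam, by 0.16 ± 0.047. Neo1, the close relative of Dcc, rose too (0.14 ± 0.031; 11.53 at E11 and 12.83 at P0). Gpc1, a heparan sulfate proteoglycan that binds Slits, had a slope of -0.19 ± 0.049 and was the gene of this list that fell. Lrrc4c, the partner of netrin-G1, did not pass (0.059 ± 0.047, limma, adjusted p = 0.335).

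Effectors of Eph receptors and ephrins rose in 8 of 19 cases and fell in 2 (42.1% and 10.5%). Over all genes tested 25.2% rose and 21.9% fell, and the effector lists were not tested against these shares. Anks1b, an adaptor with a phosphotyrosine-binding domain, rose by 0.61 ± 0.073, and Ngef, the exchange factor ephexin-1 that binds EphA receptors, by 0.43 ± 0.066. Grip2, a PDZ adaptor of ephrin-B ligands, rose by 0.30 ± 0.073. Spsb4 (-0.21 ± 0.042), a ubiquitin ligase adaptor, and Itsn1 (-0.13 ± 0.019), an exchange factor for Cdc42, fell. Of the 12 effectors of Robo receptors tested 2 rose, Srgap2 (0.12 ± 0.031) and Srgap3 (0.099 ± 0.026), which are GTPase-activating proteins, and 2 fell, Abl1 (-0.10 ± 0.028) and Enah (-0.056 ± 0.020), a tyrosine kinase and an actin regulator. For the Robo effectors both shares were 16.7%, under those of all genes tested. Among the 13 netrin effectors 5 rose and 1 fell (38.5% and 7.69%). Trim9, a ubiquitin ligase that binds Dcc, rose by 0.61 ± 0.044, from 5.58 at E11 to 10.45 at P0, its relative Trim67 by 0.27 ± 0.087, the actin-binding Ablim1 by 0.23 ± 0.026, while the motor Myo10 fell (-0.19 ± 0.046). Of 6 shared GTPases and their targets, Rac1 (0.086 ± 0.022) and Cfl1 (0.039 ± 0.0092) rose and 0 fell.

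Marker genes of several cell types changed over the same 9 arrays. Over all genes tested 25.2% rose and 21.9% fell, and no marker list was tested against these shares. All 5 cell cycle genes and all 7 genes of radial glia and progenitors tested fell. The summed level of a list is the log2 of the sum of its levels taken off the log2 scale, so that the highest genes weigh most. That of the cell cycle list ran from 14.46 at E11 to 11.51 at P0, alongside the falls of Epha4, Efnb1, Slit2 and Dcc. Of the 6 genes of the bulb's output neurons (mitral and tufted cells), 4 rose and 1 fell. The median of that list was 8.76 at E11, 12.20 at E16 and 11.19 at P0, next to the climbs of Epha3, Ntng1 and Unc5d. All 7 GABAergic interneuron genes, all 6 ensheathing cell genes and 9 of 10 meningeal genes rose, and the summed level of the meningeal list lay between 11.47 at E13 and 15.09 at E18. From E11 to E12 the median went from 6.82 to 4.78 for the meningeal list. It went from 9.10 to 9.02 for the interneuron list and from 3.46 to 3.77 for the ensheathing cell list. All 5 astrocyte genes tested rose, as did all 5 microglial genes tested and 4 of 5 genes of oligodendrocyte precursors, while Gfap and Aif1 never reached log2 5. The summed levels ran from 9.38 at E11 to 12.82 at P0 for astrocytes, from 8.21 at E11 to 11.00 at P0 for microglia and from 7.62 at E12 to 12.29 at P0 for oligodendrocyte precursors, alongside the rises of Ntng1, Unc5c and Unc5d. Of 5 red cell genes 4 fell (Hbb-y, Hbb-bh1, Hba-x and Slc4a1), and the summed level went from 16.27 at E11 to 7.58 at P0. Alas2 did not pass (-0.10 ± 0.076, limma, adjusted p = 0.306). It read 9.46 at E11, 7.76 at E12, 8.54 at E16 and 6.94 at P0, so that the list did not move as 1. Of 8 endothelial genes 5 were tested and 2 rose, while Pecam1, Cdh5 and Tie1 never reached log2 5. Omp, Cnga2 and Cyp2g1 of the olfactory epithelium never did either, but Gng13, the remaining gene of that list on the array, rose from 2.65 at E11 to 6.30 at E18 and 6.25 at P0 (0.50 ± 0.090, limma, adjusted p = 0.00143). Of 4 cartilage and bone genes 2 were tested and Col2a1 fell (-0.41 ± 0.069). The part of these cell types in the results above was not tested.

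**Figure D4:**
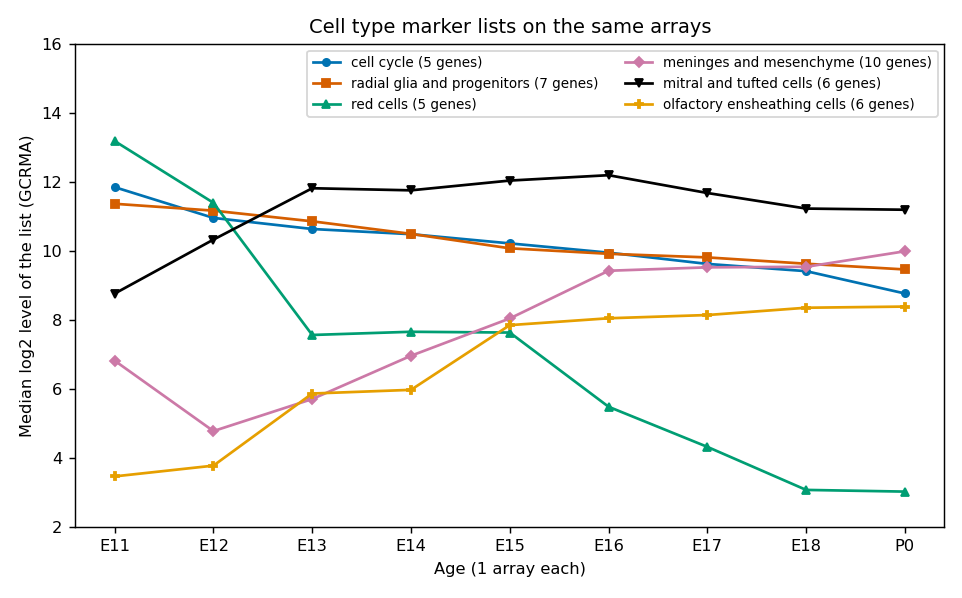
Median deposited log2 level (vertical axis) of 6 marker lists against age (horizontal axis, 1 array per age). The cell cycle list declines from 11.85 at E11 to 8.77 at P0, and the mitral and tufted cell list climbs from 8.76 at E11 to 11.82 at E13. The red cell list drops between E11 and E13 and again from 7.63 at E15 to 3.07 at E18.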

How the data were processed

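Bulb RNA of 9 CD1 mice, 1 per age, was measured on 1 array each. The authors deposited a log2 level for each probe set, computed with GCRMA (a background correction by probe sequence followed by normalization between arrays), per the submitters' processing notes. Its version is not given in the sources used here. That the scale is log2 was read from the values. Precision is limited by the number of arrays. Of 45101 probe sets, 34958 had 1 gene symbol in the platform annotation, 932 several and 9211 none. Probe sets with 1 symbol that read log2 5 or more on 2 arrays were kept, and the highest mean per gene used.

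Genes were fitted against age in days (P0 as day 19) with limma 3.58.1 in R 4.3.3 (moderated variance with a trend, two-sided, Benjamini-Hochberg over 10865 genes, threshold 0.05); 7 residual degrees of freedom remained (10.3 moderated). Peaks and dips used age and age squared, with a turning point between day 12 and day 18. Folds set values under 5 to 5. Where the arrays of some ages are said to lie above those of others, the split follows the values of that gene and was not tested. The procedure was tested on simulated data. Alternatives were each array left out, quantile and median scaling, other filters, probe set rules, variance models, P0 at day 20, embryo sex, E13 to P0 alone, rank correlation and a fold floor at log2 6. P-values measure the scatter of animals of different ages around a trend. Members past a threshold were named with values, others by range, and of pathway lists up to 3 of the steepest in each direction, with Neo1 and Lrrc4c added after their values were seen. Unc50 was set apart with the Slitrk genes after the array's symbols were read. Members and lists were chosen with earlier results of these data known.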

Additional observations from a re-analysis of the deposited data

How the results depend on the processing

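Of the 14 members called, 3 (Epha4, Efnb1 and Dcc) kept the call under every setting tried and in each of their other probe sets that passed the filter. Ntng1 kept it under the 23 settings but not in 1 of its other 2 probe sets, and the other 10 lost it under at least 1 setting. Without 1 array at a time, the number rising lay between 2 (without E11) and 7 (without E13), the number falling between 7 and 9, the peaks between 1 (without E11) and 5 (without E12), and the dips between 0 and 1 (Slit2, without E17). The rising count was 3 where log2 5 was asked on all 9 arrays, which removes Unc5c and Unc5d, 1 from E13 to P0 and 1 by exact rank correlation, where 6 calls were lost. The peaks were 0 with embryo sex in the fit and 0 from E13 to P0, where those over all genes were 70 and 101, against 539. Epha3 reversed from E13 to P0, with a slope of -0.17 (adjusted p = 0.00345). The other counts stayed within 1.5 times, and a fold floor at log2 6 gave a P0 minus E11 difference of 4.10 for Ntng1, 1.36 for Unc5c and 3.07 for Unc5d, against 5.01, 2.36 and 4.07. Over all genes, median centring gave 2389 rising and 2989 falling, against 2743 and 2383, and moved array medians by up to 0.088. The causes were not tested, apart from the removal of genes by the filter. No paired analysis was possible because each age had 1 array.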
